A study of Rattus norvegicus with 12 samples.

Results

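Mitosis, spindle and kinetochore genes were examined as a set of 49 rat genes, chosen by gene name: mitotic cyclins and kinases, checkpoint, kinetochore, kinesin, condensin and cytokinesis genes, with the transcription factor gene Foxm1. Of the 49, 48 were found by name among the 16002 gene IDs kept, and all 48 were among the 11398 genes that passed the filter on low counts. The expression of Cenpa is not analysed here. RNA came from H9C2, a cell line made from rat heart, whose myoblasts still divide and can begin to form muscle. There were 3 groups of 4 libraries, called control, H/R and LITAF below. Control cells (genotype wild type) were kept in normoxia and carried no lentivirus. The H/R cells (wild type) received an empty lentiviral vector, then hypoxia at 1% oxygen for 8 h and reoxygenation for 2 h. The LITAF cells (genotype given as LITAF overexpression) received a lentivirus that carries LITAF and went through the same hypoxia and reoxygenation. All 3 groups thus share the line and the medium, and the H/R and LITAF groups share a vector and the same oxygen schedule, so in a difference from control the vector and H/R cannot be told apart. The labels name a single batch and call the replicates biological, without stating separate cultures, so a p-value here speaks only to the spread from library to library, which may be technical.

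Mitosis is driven by the kinase Cdk1 with its cyclins, which starts chromosome condensation and spindle assembly. Kinetochores, protein plates on the centromeres, then attach chromosomes to spindle microtubules, and a checkpoint holds the cell until every kinetochore is attached. The anaphase-promoting complex ends this wait by marking cyclin B and securin for destruction, after which sister chromatids part and the cell divides. Many of these genes are transcribed mainly in G2 and mitosis, so in a bulk sample their level follows how many cells are dividing as well as how much of each RNA a cell holds, and these 2 cannot be told apart here. Heart muscle cells largely leave the cell cycle after birth, while H9C2 cells keep dividing in growth medium.

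Total counts ran from 16890647 to 20735386 per library. Values below are CPM, counts scaled to the library's total, after TMM scaling, a method that sets library sizes so that most genes are level, and they serve to compare libraries for 1 gene, not genes with each other. Counts of the 48 members ran from 98 to 46406 per gene and library. Litaf itself stood at 549, 618.5, 573 and 597.6 CPM in H/R libraries 1 to 4. In LITAF libraries 1 to 4 it stood at 2691, 2008, 2532 and 2120 CPM. Of the myoblast markers Myod1 stood at 185 to 350 CPM in control and Des at 3.06 to 4.44 CPM, while Myf5 was at 0 in all control libraries. Of the cardiac markers Tnnt2 stood at 168 to 404, Gata4 at 28.9 to 36.8 and Nkx2-5 at 4.89 to 8.90 CPM in control, while the mature cardiac markers Myh6 (at most 0.983 CPM), Nppa and Tnni3 were at or near 0 in every library. Endothelial markers (3 of 3) and the measured macrophage markers (2 of 3) summed to at most 0.168 and 0.518 CPM in any library. The 5 measured of 6 myoblast and skeletal muscle markers summed to 1625 to 5951 CPM in control, 113.5 to 133 CPM in H/R and 153 to 183 CPM in LITAF, with Myog alone at 1257 to 5730 CPM in control. Cardiac markers (6 of 6) summed to 208 to 446.5, 80.3 to 110.0 and 163 to 221 CPM, smooth muscle markers (4 of 4) to 3817 to 4803, 6218 to 6644 and 5085 to 7880 CPM, and fibroblast markers (4 of 4, Dcn at 0) to 52770 to 69970, 22200 to 25220 and 26020 to 33990 CPM in control, H/R and LITAF. In each list 1 or 2 genes carried most of the sum, and some others moved against it: from control to H/R the mean of Des went from 3.70 to 13.0, of Nkx2-5 from 6.84 to 16.5 and of Myh11 from 30.2 to 8.21 CPM. The part of these shifts in the results below was not tested. Control columns held fewer values that were not whole numbers (2.85 to 3.40%) than the columns of both H/R groups (11.4 to 12.6%), and same-numbered control and H/R libraries deviated together (r = 0.302 to 0.568 across genes), so how the control values were made cannot be told apart from the response.

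The mitosis genes fell almost as a block in H/R against control. By edgeR's quasi-likelihood test over all genes, 46 of 48 fell, none rose and 2 did not pass, Bub3 and Ncaph; at an unadjusted p under 0.05 and with DESeq2 too, 0 were higher. The median log2 fold change was -1.83, a 3.56-fold lower level, against a median of 0.007 over all genes tested. Of all genes tested, 63.6% were called in either direction and 31.8% fell in this comparison, and in 28.3% all H/R values lay below all control values, which was so for 46 of the 48 members. Together the 48 genes took up 1.24 to 1.45% of all counts in control libraries, 0.369 to 0.400% in H/R libraries and 0.276 to 0.351% in LITAF libraries. With LITAF overexpression on top of H/R the levels stayed low, and 46 of 48 were again lower than in control, against 32.6% of all genes (64.6% in either direction). Between LITAF and H/R, 3 of 48 fell, Ttk, Kif18a and Ncapg, and none rose, against 1.15% of all genes that fell and 3.73% that rose (4.88% in either direction).

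**Figure D1:**
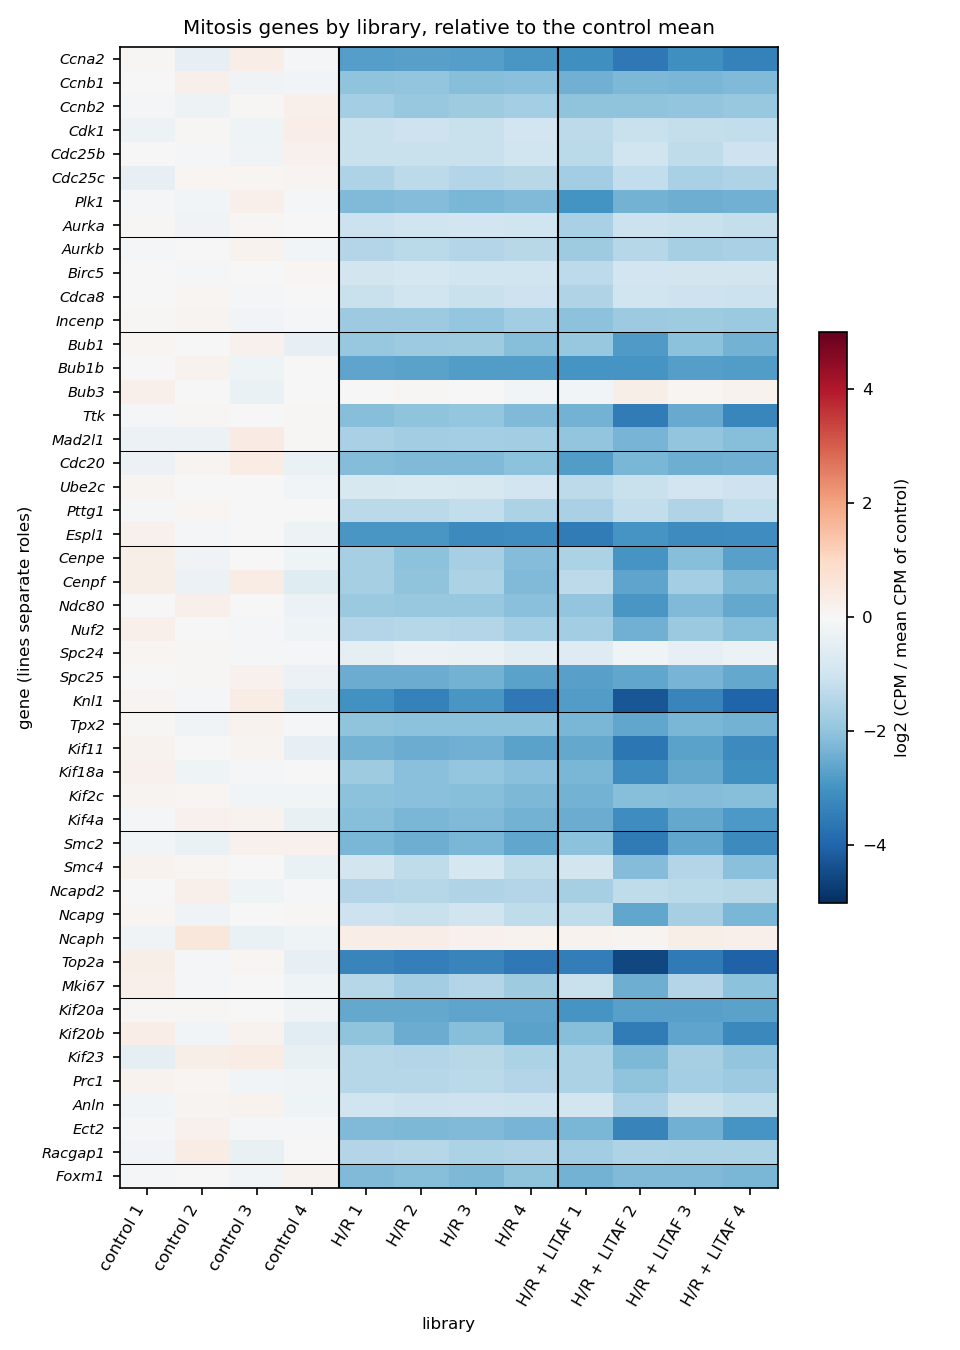
Log2 ratio of each member's CPM to its mean in control (colour, blue lower and red higher) for the 48 genes (rows, by role) in the 12 libraries (columns). All genes but Bub3 and Ncaph are blue in the 8 libraries of the H/R and LITAF groups. Many rows are darkest in LITAF libraries 2 and 4, while in 23 rows library 1 is the lowest of the LITAF libraries.

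Since the members moved together, their promoters were read for sequence they share. As background, a pair of elements is known from cell cycle promoters: the cell cycle genes homology region (CHR), which is bound by the MuvB complexes that repress or activate these genes, and the CCAAT box, bound by NF-Y. RefSeq promoters (GRCr8) matched 41 of the 48 measured members, all but Ccna2, Aurkb, Incenp, Ube2c, Tpx2, Racgap1 and Foxm1, and the 250 bases before the annotated start were searched on both strands. A CHR (TTTGAA or TTCGAA) was found in 24 of 41 (58.5%), against 12.0% of 9395 promoters of tested genes and 17.4% of all 33469 promoters. A CCAAT box was found in 30 of 41 (73.2%), against 36.3% of promoters of tested genes and 34.0% of all promoters. At least 2 CCAAT boxes were found in 19 of 41 (46.3%), against 13.1 and 9.42%. A CHR and a CCAAT box stood together in 21 of 41 (51.2%), against 4.60 and 6.31%. The E2F words TTTCCCGC and TTTGGCGC were found in 1 of 41 (2.44%), that of Kif18a, against 2.58 and 1.21%. None of the 3 was found in 7 of 41 (17.1%), against 54.8 and 54.2%. The median distance of a CHR from the start was 60.5 bases over 30 matches in these 41 promoters, and of a CCAAT box 101 bases over 65 matches.

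Shown are the 250 bases of 3 members that fell and of the 2 that did not pass, 5′ to 3′ on the gene's strand, with CHR and CCAAT matches in capitals (on the other strand they read TTCAAA or TTCGAA, and ATTGG). They set members with unlike responses side by side, and a link between matches and response was not tested. Cdk1 (chr20:19265043-19265292, plus strand), the central mitotic kinase, holds 2 CHR and 3 CCAAT matches. Top2a (chr10:84473094-84473343, minus strand), the gene with the largest fall, holds 2 and 4. Ncapg (chr14:69645446-69645695, minus strand), lower in LITAF than in H/R, holds 1 and 3. Bub3 (chr1:195760282-195760531, plus strand), whose level did not differ past the threshold, holds 1 and 3. Ncaph (chr3:134852503-134852752, minus strand) holds neither. The searched bases of Aurka, Bub1, Mad2l1, Ndc80, Nuf2, Kif2c and Kif18a also hold neither, and these genes all fell in H/R against control. Kif2c had 2 promoter entries, of which only the first was searched. Whether the annotated starts are those used in these cells was not tested, so a missing match may reflect the start chosen. A match is a description of these letters, and binding was not measured.
Cdk1: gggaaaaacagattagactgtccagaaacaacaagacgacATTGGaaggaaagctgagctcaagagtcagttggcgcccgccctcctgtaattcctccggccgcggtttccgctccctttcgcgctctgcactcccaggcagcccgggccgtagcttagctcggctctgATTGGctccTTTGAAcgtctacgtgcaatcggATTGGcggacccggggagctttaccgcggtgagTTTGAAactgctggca
Top2a: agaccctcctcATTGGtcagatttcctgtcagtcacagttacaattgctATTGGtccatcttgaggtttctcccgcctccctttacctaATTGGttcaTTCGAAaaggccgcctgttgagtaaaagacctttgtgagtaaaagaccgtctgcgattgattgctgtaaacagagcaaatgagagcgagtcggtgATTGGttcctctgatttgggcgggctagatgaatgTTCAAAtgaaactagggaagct
Ncapg: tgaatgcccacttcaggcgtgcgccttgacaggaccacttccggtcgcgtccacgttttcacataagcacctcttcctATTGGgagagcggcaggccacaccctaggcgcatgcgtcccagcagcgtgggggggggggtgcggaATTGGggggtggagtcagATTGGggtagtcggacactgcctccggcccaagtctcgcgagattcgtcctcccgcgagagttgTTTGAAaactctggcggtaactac
Bub3: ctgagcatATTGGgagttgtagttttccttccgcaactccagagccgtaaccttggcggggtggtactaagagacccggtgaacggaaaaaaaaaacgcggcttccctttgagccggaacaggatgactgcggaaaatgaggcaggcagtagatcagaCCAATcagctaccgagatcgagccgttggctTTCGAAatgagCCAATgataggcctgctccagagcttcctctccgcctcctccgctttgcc
Ncaph: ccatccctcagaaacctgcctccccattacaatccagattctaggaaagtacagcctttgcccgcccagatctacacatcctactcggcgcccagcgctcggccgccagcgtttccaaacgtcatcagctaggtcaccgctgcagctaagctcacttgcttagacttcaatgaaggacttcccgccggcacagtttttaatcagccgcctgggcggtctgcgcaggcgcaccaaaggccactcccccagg

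All 8 cyclins, mitotic kinases and Cdc25 phosphatases fell in H/R against control, from log2 -2.78 for Ccna2 to -1.01 for Aurka, with a median of -1.59. Ccna2, cyclin A2 of S phase and G2, stood at 429, 314, 524 and 395 CPM in control libraries 1 to 4, at 61.6, 64.0, 60.9 and 56.0 CPM in the H/R libraries and at 49.9, 34.5, 49.9 and 39.8 CPM in the LITAF libraries. The ranges of the 3 groups do not overlap, with LITAF libraries 2 and 4 lowest. Its change was log2 -2.78 ± 0.16 (edgeR adjusted p = 2.88e-10). Ccnb1, cyclin B1, whose rise and destruction time entry into and exit from mitosis, stood at 365, 429.9, 313 and 322 CPM in control libraries 1 to 4, at 89.0, 91.7, 81.7 and 83.8 CPM in the H/R libraries and at 66.8, 75.3, 74.2 and 77.2 CPM in the LITAF libraries. Control lay above both other groups in every library, and each LITAF library lay below each H/R library. The change from control to H/R was log2 -2.05 ± 0.11, and that from H/R to LITAF was log2 -0.24 ± 0.11, which did not pass (edgeR adjusted p = 0.233). Ccnb2, the second B-type cyclin, went from 139 ± 20.1 to 40.8 ± 2.19 CPM (mean ± SD, n = 4 in every group here and below). Cdk1, the kinase that both B cyclins activate, stood at 219.6, 270.0, 222 and 329.8 CPM in control libraries 1 to 4, at 119, 128, 119.8 and 133 CPM in the H/R libraries and at 107, 122, 115 and 112 CPM in the LITAF libraries. It fell less than its cyclins, by log2 -1.06 ± 0.12, and H/R and LITAF ranges overlap. A test of the difference between these genes was not run.

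Plk1, the polo-like kinase of centrosome maturation and mitotic entry, stood at 359, 345, 453 and 358 CPM in control libraries 1 to 4, at 82.6, 83.3, 77.5 and 81.3 CPM in the H/R libraries and at 48.4, 73.6, 70.3 and 72.2 CPM in the LITAF libraries. LITAF library 1 is the lowest of all 12, and the other LITAF libraries sit just under the H/R values. Its change was log2 -2.22 ± 0.13 in H/R against control and log2 -0.30 ± 0.13 in LITAF against H/R (edgeR adjusted p = 0.217). Aurka, the kinase of spindle poles, went from 71.0 ± 5.92 CPM in control to 35.3 ± 0.943 in H/R and 30.1 ± 4.79 in LITAF. The phosphatases Cdc25b and Cdc25c, which remove the inhibitory phosphates from Cdk1, fell by log2 -1.08 ± 0.11 and -1.42 ± 0.14 in H/R, and both overlapped between H/R and LITAF. Foxm1, the transcription factor that activates many G2 and mitosis genes, stood at 182, 199, 178 and 216 CPM in control libraries 1 to 4, at 42.0, 44.7, 40.3 and 48.1 CPM in the H/R libraries and at 38.1, 41.7, 42.2 and 39.5 CPM in the LITAF libraries. All control values lie far above both other groups. The fall was log2 -2.15 ± 0.10 (edgeR adjusted p = 4.13e-11), and LITAF against H/R was log2 -0.12 ± 0.10, with overlapping ranges.

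**Figure D2:**
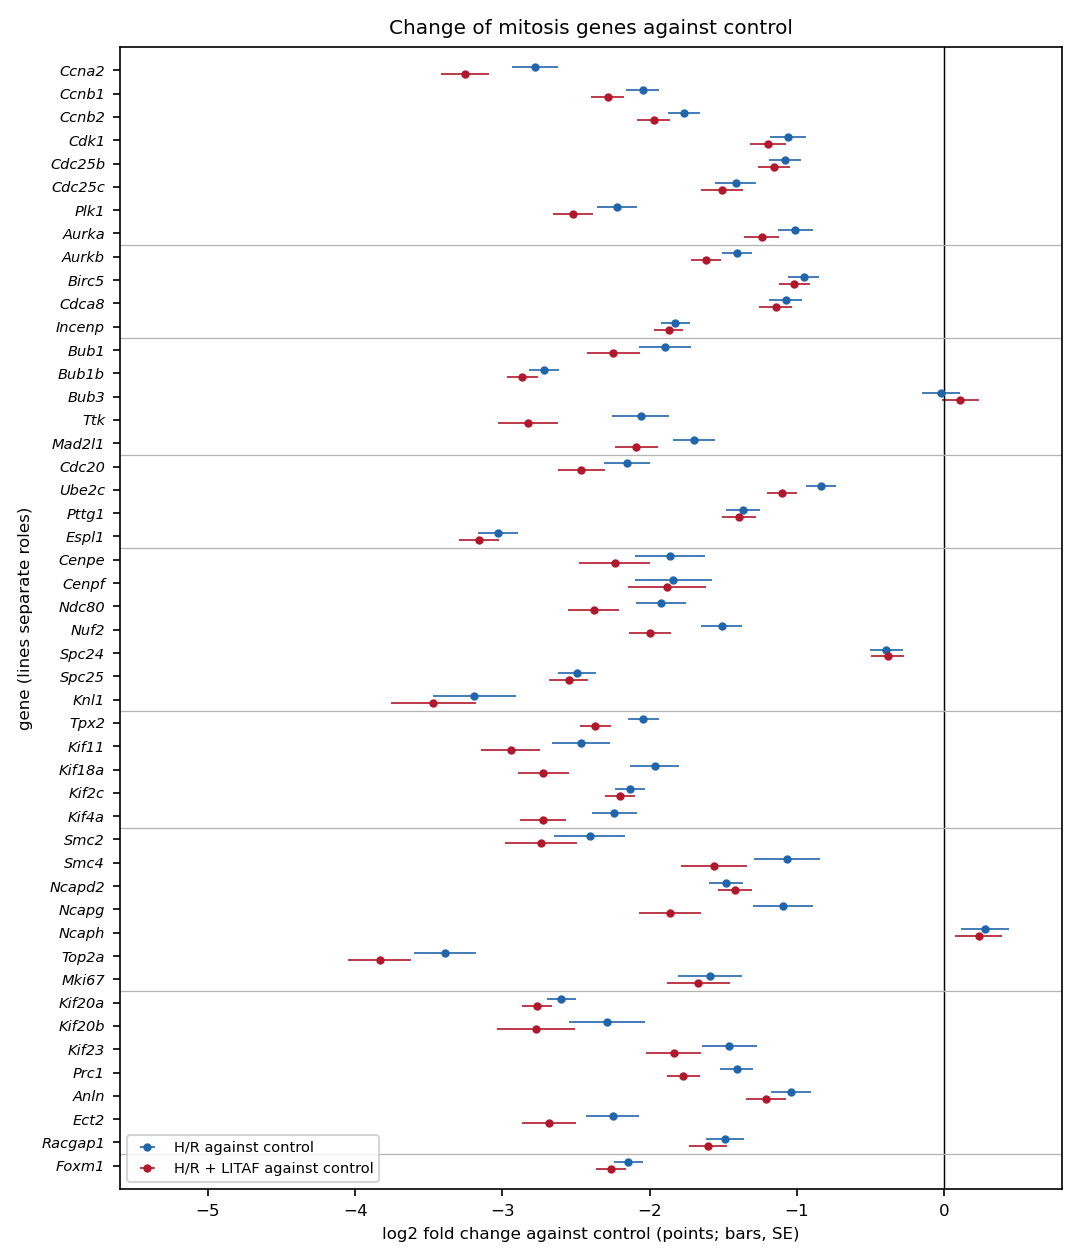
Log2 fold change against control (points; bars, SE from the edgeR fit) for the 48 genes by role, in blue for H/R and in red for LITAF, which share their control libraries. Points run from -3.39 (Top2a) to 0.28 (Ncaph) for H/R, and only Bub3 (-0.02 and 0.11) and Ncaph (0.28 and 0.23) lie near or above 0.

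The 4 genes of the chromosomal passenger complex, which corrects wrong attachments of chromosomes to the spindle, all fell, by a median of log2 -1.24. Aurkb, its kinase, stood at 133, 144, 157 and 128 CPM in control libraries 1 to 4, at 51.3, 55.3, 51.0 and 53.7 CPM in the H/R libraries and at 40.9, 52.2, 44.0 and 45.6 CPM in the LITAF libraries. H/R values form a narrow band well under control, and LITAF values reach from within that band to 40.9 CPM. The fall was log2 -1.41 ± 0.10 (edgeR adjusted p = 7.08e-09). Incenp, the scaffold of the complex, fell by log2 -1.83 ± 0.10, Cdca8, which codes for borealin, by -1.08 ± 0.11, and Birc5, which codes for survivin, by -0.95 ± 0.11. None of the 4 passed in LITAF against H/R (log2 -0.21 to -0.05).

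Of 5 spindle checkpoint genes 4 fell in H/R. Bub1b, which codes for BubR1, the checkpoint protein that holds back the anaphase-promoting complex, stood at 435, 486, 377 and 445 CPM in control libraries 1 to 4, at 70.0, 68.6, 63.1 and 63.1 CPM in the H/R libraries and at 56.2, 56.4, 64.2 and 62.1 CPM in the LITAF libraries. The lowest control value is far above the highest H/R value, and the change was log2 -2.72 ± 0.10 (edgeR adjusted p = 4.5e-12). Bub1, the related kinase, fell by log2 -1.90 ± 0.18, and Mad2l1, which codes for the inhibitor MAD2, by -1.70 ± 0.14. Bub3, the partner that carries both Bub1 and BubR1 to the kinetochore, stood at 103, 86.9, 67.1 and 84.2 CPM in control libraries 1 to 4, at 83.6, 89.9, 84.6 and 77.8 CPM in the H/R libraries and at 76.6, 103, 91.5 and 96.3 CPM in the LITAF libraries. Its 3 groups overlap throughout, and the change was log2 -0.02 ± 0.13 in H/R against control (edgeR adjusted p = 0.89), with a positive sign under library totals alone and under upper-quartile scaling. Its promoter, printed above, holds a CHR and CCAAT boxes.

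Ttk, the MPS1 kinase that starts the checkpoint signal, stood at 175, 194, 183 and 191 CPM in control libraries 1 to 4, at 42.9, 46.5, 48.2 and 40.5 CPM in the H/R libraries and at 36.5, 16.3, 32.5 and 19.4 CPM in the LITAF libraries. From control to H/R it fell by log2 -2.06 ± 0.19, with ranges far apart. All LITAF libraries lie below all H/R libraries, libraries 2 and 4 far below and libraries 1 and 3 just below. The change from H/R to LITAF was log2 -0.77 ± 0.19, a 1.70-fold lower level (edgeR adjusted p = 0.0301).

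The genes of anaphase onset fell in 4 of 4. Cdc20, which activates the anaphase-promoting complex, stood at 259, 348, 409 and 250.2 CPM in control libraries 1 to 4, at 70.4, 68.5, 69.0 and 76.2 CPM in the H/R libraries and at 45.3, 65.6, 58.9 and 59.7 CPM in the LITAF libraries. LITAF library 1 is lowest and every LITAF value lies under the H/R range. The change was log2 -2.16 ± 0.16 in H/R against control and log2 -0.31 ± 0.15 in LITAF against H/R (edgeR adjusted p = 0.268). Espl1, separase, the protease that opens the cohesin ring, stood at 498, 417, 441 and 365 CPM in control libraries 1 to 4, at 56.9, 57.5, 46.8 and 49.5 CPM in the H/R libraries and at 38.4, 56.4, 48.4 and 49.5 CPM in the LITAF libraries. It was 8.17-fold lower in H/R, log2 -3.03 ± 0.14, while H/R and LITAF overlap. Pttg1, securin, the inhibitor of separase, stood at 66.6, 76.8, 71.6 and 70.3 CPM in control libraries 1 to 4, at 27.7, 28.3, 30.3 and 24.0 CPM in the H/R libraries and at 23.1, 30.5, 25.0 and 30.1 CPM in the LITAF libraries. It fell by log2 -1.37 ± 0.12, and LITAF and H/R were level (log2 -0.02 ± 0.12). Ube2c, the ubiquitin-conjugating enzyme of this step, had the smallest fall of the 4, log2 -0.84 ± 0.10.

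Of the 7 centromere and kinetochore genes measured, 7 fell, but over a wide range, from log2 -3.19 to -0.39. Knl1, the scaffold that docks the checkpoint proteins, stood at 250.3, 217, 297 and 156 CPM in control libraries 1 to 4, at 28.4, 22.3, 30.7 and 19.3 CPM in the H/R libraries and at 33.4, 11.7, 23.6 and 14.3 CPM in the LITAF libraries. It was 9.13-fold lower in H/R (edgeR adjusted p = 6.87e-08), and LITAF libraries lie both above and below the H/R range. The 4 genes of the NDC80 complex, the kinetochore's hold on microtubules, did not fall alike. Ndc80 stood at 226, 275, 237 and 188 CPM in control libraries 1 to 4, at 64.1, 63.1, 62.9 and 53.7 CPM in the H/R libraries and at 58.5, 30.7, 49.8 and 39.0 CPM in the LITAF libraries. LITAF libraries 2, 3 and 4 lie below the H/R range and library 1 lies in it. Ndc80, Nuf2 and Spc25 fell by log2 -1.93 ± 0.17, -1.51 ± 0.14 and -2.49 ± 0.13 in H/R. Spc24 stood at 32.4, 31.2, 28.1 and 27.8 CPM in control libraries 1 to 4, at 22.2, 24.2, 23.9 and 20.8 CPM in the H/R libraries and at 19.0, 25.9, 22.4 and 24.1 CPM in the LITAF libraries. Its ranges in control and H/R are apart but close, log2 -0.39 ± 0.11 (edgeR adjusted p = 0.00634), and the call was lost under upper-quartile scaling (edgeR adjusted p = 0.058). The motor Cenpe and the large coiled-coil protein Cenpf fell by log2 -1.86 ± 0.24 and -1.84 ± 0.26.

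All 5 genes of spindle motors and spindle assembly fell in H/R, by log2 -2.47 to -1.97. Kif11, the kinesin that pushes the spindle poles apart, stood at 753, 669, 744 and 508 CPM in control libraries 1 to 4, at 131, 121, 126 and 106 CPM in the H/R libraries and at 115, 54.8, 104 and 74.0 CPM in the LITAF libraries. Control lies far above H/R, and LITAF libraries 2 and 4 lie lowest. Its changes were log2 -2.47 ± 0.20 and, in LITAF against H/R, log2 -0.47 ± 0.19 (edgeR adjusted p = 0.167). Tpx2, which activates aurora A on spindles, was 4.12-fold lower, Kif4a, the chromokinesin, 4.72-fold, and Kif2c, which takes microtubules apart at kinetochores, 4.39-fold. Kif18a, the kinesin that damps chromosome movement at the metaphase plate, stood at 55.8, 41.7, 45.3 and 48.9 CPM in control libraries 1 to 4, at 14.0, 11.2, 12.6 and 11.3 CPM in the H/R libraries and at 9.78, 5.35, 8.23 and 5.64 CPM in the LITAF libraries. All LITAF values lie under all H/R values, and again libraries 2 and 4 are lowest. The change from H/R to LITAF was log2 -0.76 ± 0.17, 1.69-fold lower (edgeR adjusted p = 0.0191).

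Among condensin and chromosome structure genes 6 of 7 fell in H/R. Top2a, the topoisomerase that untangles sister chromatids, had the largest fall of all members and stood at 2365, 1852, 2114 and 1473 CPM in control libraries 1 to 4, at 199.7, 182, 197 and 165 CPM in the H/R libraries and at 177, 83.0, 169 and 118 CPM in the LITAF libraries. All H/R values lie far below control, log2 -3.39 ± 0.21 (edgeR adjusted p = 1.04e-09). Mki67, which codes for Ki-67, the coat of mitotic chromosomes and a common marker of dividing cells, stood at 702, 573, 592 and 509 CPM in control libraries 1 to 4, at 222, 179, 216 and 172 CPM in the H/R libraries and at 276, 110.2, 217 and 143 CPM in the LITAF libraries. It was 3.01-fold lower in H/R, and LITAF library 1 lies above every H/R library while libraries 2 and 4 lie below them. Smc2, an arm of the condensin ring, stood at 399, 357, 509.7 and 510.0 CPM in control libraries 1 to 4, at 89.9, 81.2, 90.6 and 73.2 CPM in the H/R libraries and at 106, 37.9, 73.2 and 49.1 CPM in the LITAF libraries. It fell by log2 -2.41 ± 0.24, the other arm Smc4 by -1.07 ± 0.22 and the subunit Ncapd2 by -1.48 ± 0.12.

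Ncapg, a further subunit of condensin I, stood at 138, 115, 132 and 137 CPM in control libraries 1 to 4, at 63.4, 60.9, 66.2 and 53.9 CPM in the H/R libraries and at 54.0, 21.5, 41.4 and 26.9 CPM in the LITAF libraries. It fell by log2 -1.09 ± 0.21 from control to H/R and by log2 -0.77 ± 0.21 from H/R to LITAF (edgeR adjusted p = 0.0444), where LITAF library 1 touches the H/R range and the other LITAF libraries lie below it. Ncaph, which codes for the kleisin that closes the condensin I ring, went the other way and stood at 25.1, 42.7, 22.5 and 24.4 CPM in control libraries 1 to 4, at 36.5, 35.9, 33.7 and 32.7 CPM in the H/R libraries and at 32.8, 31.7, 35.6 and 34.6 CPM in the LITAF libraries. Control library 2 stands above all other libraries, and the other control libraries lie below the whole of both other groups. The change was log2 0.28 ± 0.16 in H/R against control (edgeR adjusted p = 0.147) and 0.53 without control library 2 (edgeR adjusted p = 0.000259). It was also called a rise with library totals alone, with upper-quartile scaling and with the replicate number as a block in the fit of these 2 groups (edgeR adjusted p = 0.0327, 0.0381 and 0.0482).

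The 7 genes of the central spindle and of cytokinesis all fell in H/R, by a median of log2 -1.49. Kif20a, the kinesin that brings the passenger complex to the central spindle, stood at 926, 916, 887 and 786 CPM in control libraries 1 to 4, at 149.6, 148, 140.0 and 142 CPM in the H/R libraries and at 112, 135, 133 and 136 CPM in the LITAF libraries. The groups do not overlap, and LITAF library 1 lies below the other 3 LITAF libraries. The change in H/R was log2 -2.60 ± 0.10 (edgeR adjusted p = 4.32e-12). Prc1, which bundles the midzone microtubules, stood at 663, 616, 533 and 511 CPM in control libraries 1 to 4, at 218, 217, 227 and 213 CPM in the H/R libraries and at 192, 145, 181 and 163 CPM in the LITAF libraries. Each LITAF library lies below each H/R library, with log2 -0.36 ± 0.11 (edgeR adjusted p = 0.0695). Ect2, the activator of RhoA at the cleavage furrow, fell 4.76-fold in H/R, Kif20b 4.89-fold, Racgap1 and Kif23, the pair that forms centralspindlin, 2.81-fold and 2.75-fold, and the ring scaffold Anln 2.06-fold.

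**Figure D3:**
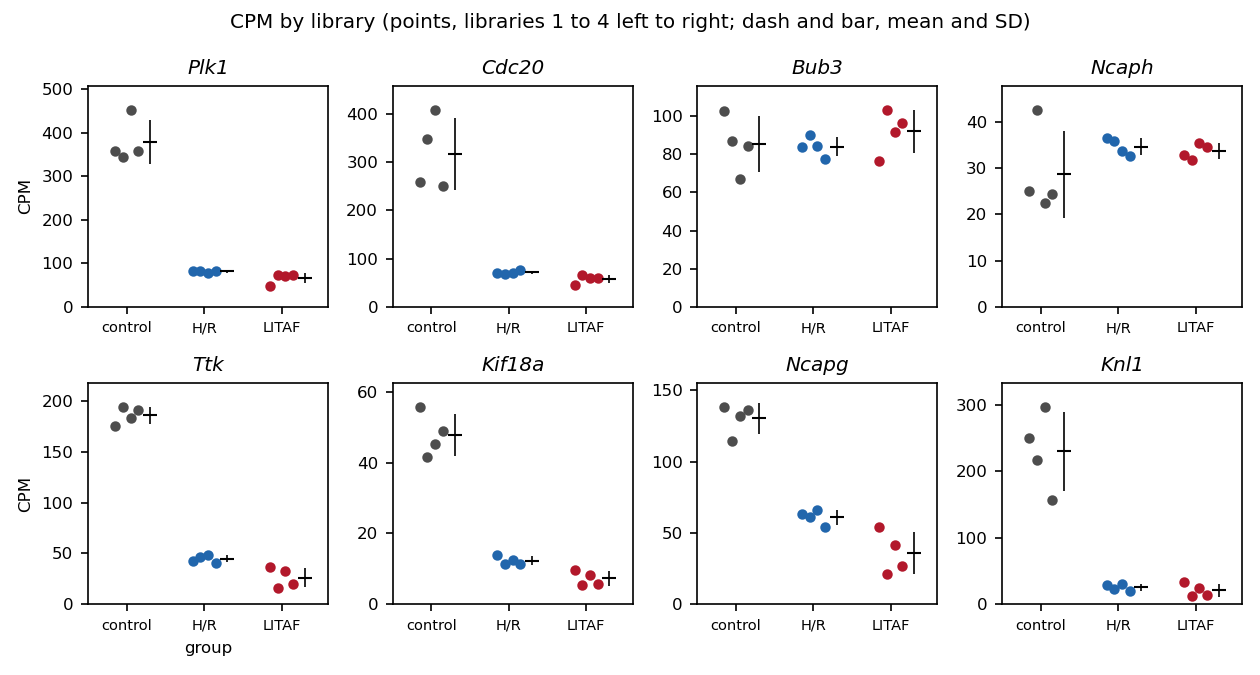
CPM in each library (points, libraries 1 to 4 from left to right) for 8 genes, with mean and SD beside the points and axes that start at 0. Plk1, Cdc20, Ttk, Kif18a, Ncapg and Knl1 lie far below control in both H/R groups, Bub3 overlaps in all 3, and in Ncaph control library 2 (42.7 CPM) stands above the other 3 control libraries (22.5 to 25.1 CPM).

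LITAF overexpression under H/R was compared with the empty vector under the same H/R, the comparison that holds vector and oxygen alike. Of the 48 members 45 had a lower fitted level (93.8%, against 5909 of 11398 genes, 51.8%), with a median of log2 -0.23 against -0.011 over all genes tested, but 3 passed. At an unadjusted p under 0.05, 17 of 48 were lower and 0 higher, against 999 and 1284 of all genes. DESeq2 called 8 lower and 0 higher, against 271 and 612 of 15479 genes tested. In 16 of 48 (33.3%) all LITAF values lay below all H/R values, against 8.3% of all genes, and in none did they lie above. By role, the median was log2 -0.47 for spindle motors and assembly, -0.36 for central spindle and cytokinesis, -0.35 for the checkpoint, -0.33 for condensin and chromosome structure, -0.28 for kinetochore genes, -0.22 for cyclins and kinases, -0.20 for anaphase genes and -0.07 for the passenger complex. The 3 calls changed with the libraries in the fit. Without H/R library 1, without H/R library 3 or without LITAF library 4 no member passed. In those fits 44, 39 and 32 of all genes fell. Without H/R library 2 or LITAF library 2 only Kif18a passed, and without H/R library 4 or LITAF library 3 only Ttk and Kif18a did. In those fits 47, 65, 72 and 67 of all genes fell. On leaving out each library in turn, the log2 fold change ran from -0.95 to -0.60 for Ttk, from -0.92 to -0.64 for Kif18a and from -1.015 to -0.59 for Ncapg. Without LITAF library 1, 14 members fell, the 3 and Ccna2, Cenpe, Ndc80, Nuf2, Kif11, Kif4a, Smc2, Smc4, Kif20b, Prc1 and Ect2, while 593 of 11515 genes tested fell in that fit, against 131 of 11398 with all libraries. In the fit of these 2 groups alone 7 members fell, against 322 of 11226 genes tested. Of the 3, only Kif18a was among these 7, with Ttk at an adjusted p of 0.0694 and Ncapg at 0.0833 by edgeR.

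**Figure D4:**
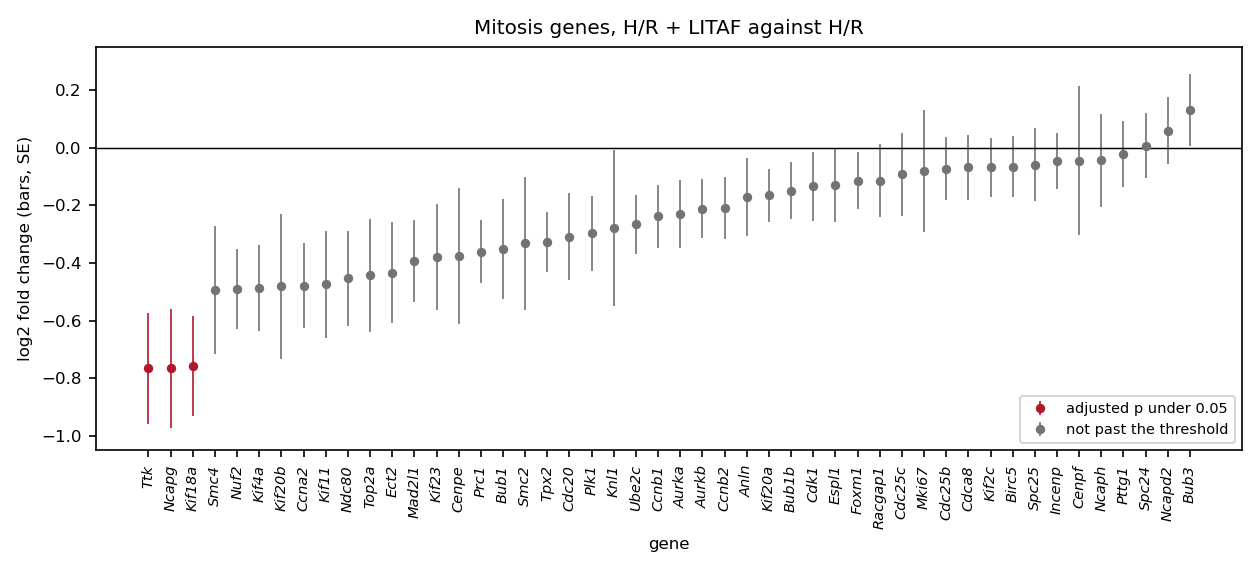
Log2 fold change of LITAF against H/R (points; bars, SE from the edgeR fit) for the 48 genes in order of size, in red where the adjusted p was under 0.05. Ttk, Ncapg and Kif18a lie at -0.77 to -0.76 and the other genes between -0.49 and 0.13.

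The LITAF libraries differed in which members were low. Libraries 3 and 4 were the lowest of the 4 for no member, while library 1 was lowest for 23 and library 2 for 25. Over all genes tested the shares were 39.5% for library 1, 37.0% for library 2, 13.6% for library 3 and 9.79% for library 4. For 14 members library 1 stood more than 0.25 below library 2 on the log2 scale (CPM + 0.5), among them Plk1, Cdc20, Aurka, Aurkb, Birc5, Pttg1, Cdc25b, Cdc25c, Bub3 and Kif20a. In these, the median difference from the H/R mean was log2 -0.36 in library 1 and 0.09, -0.12 and -0.05 in libraries 2, 3 and 4. For 20 members library 1 stood more than 0.5 above library 2, among them Knl1, Smc2, Cenpe, Cenpf, Mki67, Kif20b, Ncapg, Smc4, Ttk, Top2a and Kif11. There the median difference from the H/R mean was log2 -0.05 in library 1, -1.07 in library 2, -0.24 in library 3 and -0.67 in library 4. This class holds 41.7% of the members and 20.9% of all genes tested, and the first class holds 29.2% and 28.2%. All of Ttk, Kif18a and Ncapg belong to the class low in library 2. Litaf itself was higher in LITAF libraries 1 and 3 (2691 and 2532 CPM) than in libraries 2 and 4 (2008 and 2120 CPM). Whether its level bears on the split was not tested. The classes were formed on library 1 against library 2, so the gap between the medians of these libraries restates the rule. The sizes used to form the classes were chosen after the values were seen, and the cause of the split was not tested.

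**Figure D5:**
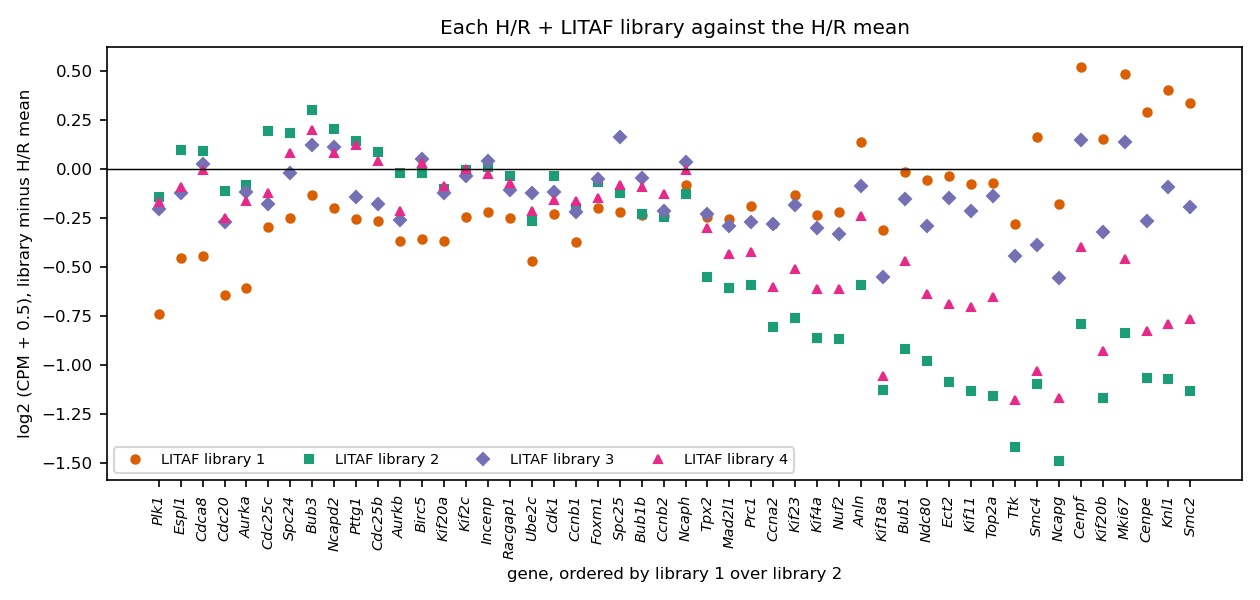
Difference on the log2 (CPM + 0.5) scale between each LITAF library (4 symbols) and the H/R mean for the 48 genes, ordered by library 1 over library 2. At the left library 1 is lowest (Plk1, -0.74), and at the right library 2 is lowest and library 4 next, down to -1.49 in Ncapg.

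A like order of libraries appeared in the other groups. In 19 of 48 members (39.6%, against 20.3% of all genes) H/R libraries 1 and 3 both lay above H/R libraries 2 and 4, and in 23 (47.9%, against 32.5%) the same held for the LITAF libraries. Both held in 18 of 48 members, and in 1484 of 11398 genes tested. In control it held for 13 (27.1%, against 16.9%). The opposite order, libraries 1 and 3 both below 2 and 4, was found in 13 members in LITAF (27.1%, against 34.0% of all genes), 5 in H/R (10.4%, against 18.8%) and 6 in control (12.5%, against 17.6%). This split of the libraries was itself taken from the LITAF values. Across the 48 members the size of this difference in H/R followed that in LITAF with r = 0.807, against 0.367 across all genes tested. Between control and H/R r was 0.711 (0.446 across all genes), and between control and LITAF 0.547 (0.207). This is a description across genes of 1 cell line that share libraries, depth and scaling, and the genes are not replicates. Knl1 shows the order in the control, H/R and LITAF groups, as printed above, with H/R libraries 1 and 3 at 28.4 and 30.7 CPM and libraries 2 and 4 at 22.3 and 19.3 CPM. The median coefficient of variation of the members was 13.9% in control, 6.08% in H/R and 15.5% in LITAF, against 16.1%, 7.45% and 12.2% over all genes tested, so it was below that of all genes in control and H/R and above it in LITAF. The highest was 47.4%, for Knl1 in LITAF.

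LITAF with H/R was also set against control, which shares its control libraries with the first comparison. The 46 members that fell had log2 values from -3.84 for Top2a to -0.38 for Spc24, and the median over the 48 was -2.05 (-0.009 over all genes tested). All values of these 46 lay below all control values, against 25.7% of all genes. Beside Top2a, the largest falls were in Knl1 (log2 -3.47 ± 0.29) and Ccna2 (log2 -3.26 ± 0.16, 9.55-fold lower). Bub3 and Ncaph did not pass, at log2 0.11 ± 0.13 and 0.23 ± 0.16. Without control library 2, Ncaph was called a rise here too, at log2 0.49 (edgeR adjusted p = 0.000521), and Spc24 lost its call under upper-quartile scaling (edgeR adjusted p = 0.0563).

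Other genes of the same pathways were followed in 8 lists of 136 genes, of which 132 were tested. In H/R against control 96 of 132 fell (72.7%, against 31.8% of all genes), 11 rose (against 31.8%) and 25 did not pass, with a median of log2 -0.94. Of 24 other spindle and centrosome genes 21 fell and 2 rose. Kif14, a kinesin of cytokinesis, went from 235 ± 24.0 to 25.6 ± 2.62 CPM and Tacc3, of spindle microtubules, from 279 ± 23.8 to 83.8 ± 0.988 CPM, while Haus8, of the augmin complex, rose from 8.79 ± 0.874 to 24.0 ± 1.44 CPM and Numa1, of spindle poles, 1.34-fold. Of 20 genes of the constitutive centromere network and CENP-A loading 16 fell and 1 rose. Cenpt was 5.70-fold lower and Oip5, of the CENP-A loading complex, 5.15-fold, while Cenpk rose 1.88-fold. Of 20 other kinetochore and checkpoint genes 16 fell and 2 rose, with Kntc1 6.12-fold and Spdl1 4.08-fold lower, and Mad2l1bp, which codes for a protein that takes MAD2 out of the checkpoint complex, and Zwint up 1.85-fold and 1.40-fold.

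Of 16 other regulators of mitotic entry and exit 11 fell and 1 rose. For this list and those below, 31.8% of all genes tested fell and 31.8% rose in this comparison. Mastl, the Greatwall kinase that keeps mitotic phosphatase in check, went from 228 ± 29.0 to 27.1 ± 2.69 CPM, and Bora, of Plk1 activation, was 2.12-fold lower, while Pkmyt1, a kinase that inhibits Cdk1, rose 1.90-fold. Of 18 MuvB, DREAM and E2F regulators 13 fell and 1 rose. E2f8 went from 283 ± 20.4 to 20.3 ± 2.14 CPM and E2f2 was 4.81-fold lower, while Lin37, a MuvB subunit, rose from 3.79 ± 0.608 to 15.3 ± 1.01 CPM. The median was nearer 0 in the lists of the anaphase-promoting complex and of cohesin. Of 17 genes of the anaphase-promoting complex and its regulators 9 fell (52.9%, against 31.8% of all genes) and 4 rose, with a median of log2 -0.32. The inhibitor Fbxo5 was 3.82-fold and the subunit Anapc1 1.93-fold lower, and the small subunits Anapc11 and Anapc13 were 1.88-fold and 1.91-fold higher. Of 14 cohesin genes 7 fell and none rose (median log2 -0.48), with Cdca5, sororin, 2.61-fold and the acetyltransferase Esco2 5.36-fold lower. All 3 condensin II genes fell, among them Ncapd3, 4.40-fold, and Ncapg2, 2.22-fold.

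In LITAF against H/R 5 of the 132 fell (3.79%, against 1.15% of all genes) and none rose. At an unadjusted p under 0.05, 32 were lower and 3 higher, against 999 and 1284 of 11398 genes. DESeq2 called 11 lower and 1 higher, against 271 and 612 of 15479 genes. Mastl, at 27.1 ± 2.69 CPM in H/R and 14.8 ± 4.54 CPM in LITAF, was the largest (log2 -0.87 ± 0.18, edgeR adjusted p = 0.00971). Fbxo5, an inhibitor of the anaphase-promoting complex, went from 30.5 ± 3.41 to 19.5 ± 3.99 CPM and Ckap2l, of spindle microtubules, from 20.8 ± 0.485 to 13.9 ± 3.00 CPM. The centromere genes Cenpl and Cenpu went from 29.7 ± 0.659 to 21.9 ± 1.26 CPM and from 28.2 ± 0.946 to 20.0 ± 3.63 CPM. Mastl was called in every alternative fit, and it was the only one of the 132 called without H/R library 1, 2 or 3 or without LITAF library 2 or 4. Without LITAF library 1, 21 fell, against 593 of 11515 genes tested. In LITAF against control 102 of the 132 fell (77.3%, against 32.6% of all genes) and 11 rose (against 32.0%), among them, beside those above, Cdc27, a subunit of the anaphase-promoting complex, 3.52-fold lower, Plk4, the kinase of centriole copying, 3.98-fold lower, Cenpw 4.68-fold lower and Mau2, of cohesin loading, 1.19-fold higher.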

How the data were processed

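The authors deposited 1 table of estimated counts per gene, which per the file headers are raw read counts that were not normalized. Some values were not whole numbers and were rounded for the tests. The submitters' processing notes name DESeq2 and edgeR, without saying what each did. How reads were aligned and counted, with which build and on which strand, is not given in the sources used here. Overlapping genes and close copies are therefore uncertain. Per the labels' protocols, polyadenylated RNA was sequenced.

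Of 16204 rows, 258 shared an ID. Of the 128 IDs concerned, 56 had identical rows (1 kept) and 72 had differing rows and were left out, among them E2f1 and Tubg1. After filterByExpr, 11398 genes were tested in 1 fit of all 12 libraries with TMM scaling and edgeR's robust quasi-likelihood test (two-sided; R 4.3.3 with edgeR 4.0.16 and limma 3.58.1), adjusted by Benjamini-Hochberg with a threshold of 0.05. CPM after TMM scaling were used for levels, and SE is the log2 fold change over the square root of F. The fit was also run on simulated counts, in which control and H/R had the same means and libraries varied independently. That run does not bear on the fall from control or on the order of libraries. The common biological coefficient of variation was 14.5%, and every member had at least 98 counts in every library.

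The members and lists were chosen with earlier results of these data known. Every member could be named; full values went to members of each role, the largest and smallest changes and members called in LITAF against H/R, and up to 2 falling and 2 rising genes with the smallest p per list and comparison were named. Same-numbered control and H/R libraries deviated together (r = 0.302 to 0.568, each sample best with its own number), for which the labels give no reason. The main fit did not pair them, and the replicate number entered only as a block in alternative fits. Alternatives were DESeq2 1.42.0, RLE size factors, library totals, upper-quartile scaling, no filter, 2-group fits, a replicate block, each library left out and a threshold of 0.01.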

Additional observations from a re-analysis of the deposited data

Results flagged for a closer look

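Of 144 sets of 4 values (48 genes in 3 groups), 9 held a library apart from the other 3 by Dixon's criterion at the 95% level, and chance alone flags about 1 in 20. In control, Cdc25c stood at 27.8 CPM in library 1 (others 39.8 to 40.2 CPM), Plk1 at 453 CPM in library 3 (others 344.8 to 359 CPM), Aurka at 62.2 CPM in library 2 (others 72.7 to 74.7 CPM), Ncaph at 42.7 CPM in library 2 (others 22.5 to 25.1 CPM) and Ect2 at 428 CPM in library 2 (others 349.9 to 356 CPM). In H/R, Ndc80 stood at 53.7 CPM in library 4 (others 62.9 to 64.1 CPM). In LITAF library 1, Plk1 stood at 48.4 CPM (others 70.3 to 73.6 CPM), Kif2c at 36.8 CPM (others 42.7 to 43.8 CPM) and Kif20a at 112 CPM (others 133 to 136 CPM). Of these values, that of Ncaph decides a call, as given above.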

How the results depend on the processing

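Against control, 46 members fell under every alternative except upper-quartile scaling (45, Spc24 lost), for H/R and for LITAF. Leaving out each library gave 46 throughout, with 6768 to 7224 of all genes called for H/R and 6854 to 7586 for LITAF. Ncaph was the 1 member that rose in H/R under library totals, upper-quartile scaling and the 2-group replicate block, and leaving out each library gave 0 to 1 rises in both comparisons.

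In LITAF against H/R the calls moved most. Members that fell numbered 8 with DESeq2, 5 with library totals, 6 with upper-quartile scaling, 7 in the 2-group fit, 0 at a threshold of 0.01 and 0 to 14 on leaving out each library. All genes called numbered 556, and 883 with DESeq2, 1098 in the 2-group fit, 182 at 0.01 and 244 to 1285 on leaving out each library. Over all genes tested, same-numbered LITAF libraries were only weakly alike to those of H/R (r = 0.0543 to 0.197) and of control (r = 0.0487 to 0.1), not each best with its own number. Across the members the order of libraries in H/R followed that in LITAF more closely (r = 0.807, as given above). The replicate block gave 11 members and 873 genes over all libraries, and 10 members and 887 genes in the 2-group fit. It changed no other call of a member against control than that of Ncaph. The cause of these shifts was not tested.

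Rises made up 49.9% of calls in H/R against control, 59.0% with library totals and 58.1% with upper-quartile scaling, which moved the median of all genes to 0.134 and 0.123. In LITAF against H/R the share was 76.4%, 61.0% and 66.5%.

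Signs changed in 28 member values, none with an adjusted p under 0.05. For H/R against control, Bub3 stood at log2 0.11 with library totals and 0.095 with upper-quartile scaling, and at -0.12 to 0.080 on leaving out each library. For LITAF against H/R, Spc24 stood at -0.041 and -0.0023 with these scalings, and on leaving out each library at -0.064 to 0.11. There the range was -0.28 to 0.13 for Cenpf, -0.091 to 0.070 for Pttg1, -0.085 to 0.028 for Incenp, -0.14 to 0.0073 for Cdc25b, -0.11 to 0.041 for Birc5, -0.13 to 0.059 for Cdca8, -0.14 to 0.011 for Spc25, -0.10 to 0.0072 for Kif2c, -0.00044 to 0.16 for Ncapd2 and -0.32 to 0.10 for Mki67.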
